A study of Mus musculus with 8 samples.

Results

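The *Hes* and *Hey* genes encode basic helix-loop-helix repressors, and they were examined here together with *Nrarp*, a small antagonist of NOTCH signaling whose gene is itself switched on by the pathway. The members were picked by gene symbol, from a family chosen with earlier results of these data known. All 10 of them (*Hes1*, *Hes2*, *Hes3*, *Hes5*, *Hes6*, *Hes7*, *Hey1*, *Hey2*, *Heyl* and *Nrarp*) were found among the 48526 genes of the count table. The libraries came from 4 wild-type male embryos of the C57bl6/J strain at stage E8.5f, untreated and without a transgene, named L29-3, L43-5, L46-8 and L49-3. The heart field of each embryo, dissected without the heart tube and the back, was split at the midline, and each side gave its own poly-A RNA library. The design thus has 4 left and 4 right libraries in pairs, and asks which genes differ between the sides within an embryo. The tissue was not sorted by cell type. Where 4 values follow each other without a name, they are in the order L29-3, L43-5, L46-8 and L49-3.

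When a NOTCH receptor binds a DELTA or JAGGED ligand, its intracellular domain is cut off and enters the nucleus, where it joins the DNA-binding factor RBPJ and Mastermind co-activators. *Hes1*, *Hes5*, *Hes7*, *Hey1*, *Hey2*, *Heyl* and *Nrarp* are classical genes activated in this way, so their RNA is commonly read as an output of the pathway. HES proteins bind N boxes and class C E boxes. HES and HEY proteins recruit corepressors, and HES proteins silence genes such as the proneural factors, whereas HES6 is known to counteract HES1. In the embryo these genes keep neural progenitors from differentiating too early, time the formation of somites and, for the *Hey* genes, pattern the heart chambers, valves and arteries.

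Libraries held between 1147446 and 3520753 counted reads (median 1916167), and 3 reads, the most that a count of 0 allows for counting error, stood for a normalized count of 1.60 to 4.99. The values below are counts divided by the DESeq2 size factor of the library (normalized counts) unless stated. Embryo L49-3 stood apart in the markers of heart progenitors next to the myocardium: *Tbx5* had normalized counts of 20.1 (left) and 19.9 (right), against 89.97 to 164 in the other 6 libraries. The summed normalized count of 10 cardiomyocyte markers ran from 762 in the left library of L49-3 to 6331 in the left library of L29-3, with the defining chamber marker *Nppa* at 1 read in all. The 10 markers of the second heart field were all measured, with sums from 825 to 1261. In bulk tissue, fewer cells of a type and less RNA per cell cannot be told apart.

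Promoter sequences are shown for 3 members to set the DNA of a canonical RBPJ target that was well detected (*Hey2*), of another that had few reads here (*Hes5*) and of a detected gene without a match (*Hes6*). They are from RefSeq on GRCm38.p6, which held entries for 5 of the 10 members, and are printed 5′ to 3′ in the direction of transcription, ending at the annotated start of the gene. Capitals mark the core letters of the RBPJ motif, TGGGAA or its reverse complement TTCCCA.
Hey2, chr10:30842802-30843033, minus strand: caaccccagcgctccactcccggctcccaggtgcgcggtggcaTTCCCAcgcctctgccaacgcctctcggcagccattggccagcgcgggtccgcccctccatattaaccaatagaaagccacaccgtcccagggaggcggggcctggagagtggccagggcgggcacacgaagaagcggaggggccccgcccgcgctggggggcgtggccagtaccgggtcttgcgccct
Hes5, chr4:154960673-154960922, plus strand: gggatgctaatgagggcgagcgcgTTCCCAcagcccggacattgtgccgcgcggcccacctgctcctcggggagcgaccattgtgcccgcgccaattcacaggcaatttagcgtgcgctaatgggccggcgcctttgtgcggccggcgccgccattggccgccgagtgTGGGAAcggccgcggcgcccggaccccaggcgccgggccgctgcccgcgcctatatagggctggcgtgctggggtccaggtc
Hes6, chr1:91414039-91414288, minus strand: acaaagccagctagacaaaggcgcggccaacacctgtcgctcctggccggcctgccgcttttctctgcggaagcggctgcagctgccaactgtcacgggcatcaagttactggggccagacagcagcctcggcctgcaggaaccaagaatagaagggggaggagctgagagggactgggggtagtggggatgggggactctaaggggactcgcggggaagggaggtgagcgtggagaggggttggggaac

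In windows from 250 bases before to 50 bases after each RefSeq start, TGGGAA occurred on either strand in 25.6% of 32851 promoters, so a single match is common. The longer form GTGGGAA, which contains it, was found in 6.38%. The *Hes5* window held this longer form at 2 places, where the TGGGAA core began 226 bases before the start on the minus strand and 82 bases before it on the plus strand. The *Hey2* window also held 2, with cores 207 bases before the RefSeq start and 3 bases before it. The latter lies past the printed stretch, which stops at an upstream start annotated in GENCODE. In *Hes7* 1 match lay 180 bases before the start, and neither of the 2 *Hes6* starts nor the *Nrarp* start had one. The letters that HES proteins themselves bind were searched too: the N box CACNAG occurs in 42.5% of promoters and the class C E box CACGNG in 27.5%, with possible overlap between these. *Nrarp* had 2 N boxes and 1 class C E box, *Hes7* had 1 and 2, with 1 overlapping pair at the same position, and *Hes5* and *Hey2* had neither. *Hes6* had 1 class C E box at its first start, 157 bases before it, and 2 N boxes at its second.

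*Hes1* was the most abundant member. Its reads were divided by exon length and scaled to a common total (TPM), which lets genes of different length be compared, and its mean level was 90.9 TPM ± 11.8 (SD, 8 libraries). It alone made 49.9% of the summed level of the 10 genes and lay at percentile 80.4 of the tested genes. *Hes6* followed with 28.2 ± 4.50 TPM and *Hey1* with 25.8 ± 5.45 TPM. *Hes3*, a member with a neural role, had 16.6 ± 12.8 TPM, and *Hey2* had 14.1 ± 3.18 TPM. The remaining genes were near the limit of detection: mean levels were 2.96 TPM for *Hes5*, 2.08 for *Nrarp*, 1.01 for *Heyl* and 0.497 for *Hes7*, and *Hes2* had no read in any library.

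**Figure D1:**
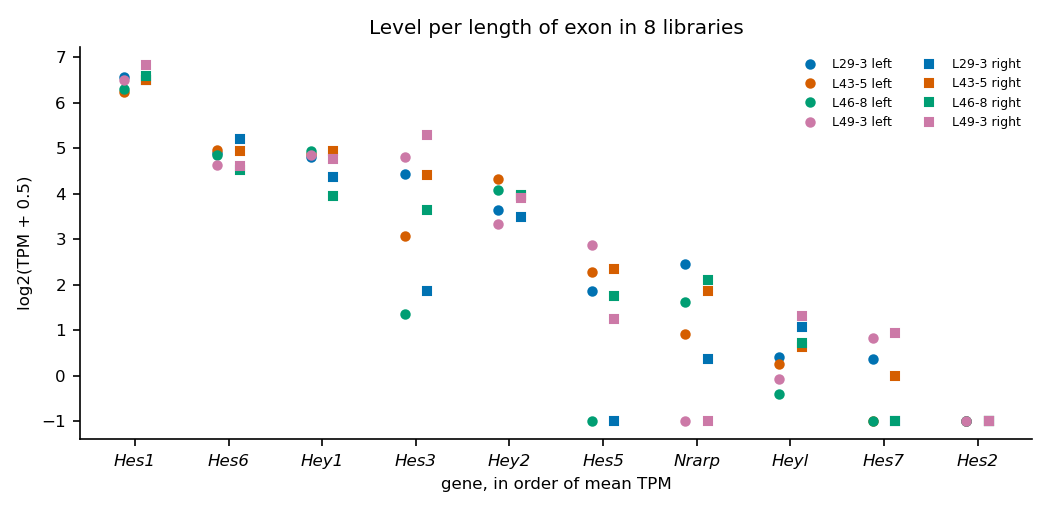
Level of the 10 genes in each library as log2(TPM + 0.5), in order of mean TPM. Circles are left and squares right libraries, coloured by embryo, and genes at -1 had no read; *Hes1* lies above all the others in each of the 8 libraries.

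The top of the order was the same in every library and the middle was not. *Hes1* exceeded *Hes6* in 8 of 8 libraries, with a mean log2 difference in level of 1.67 ± 0.288 (SD, n = 4 embryos). *Hey2* exceeded *Hes5* in 8 of 8 as well, by 2.54 ± 1.01. The exact two-sided sign-flip test over embryos gave p = 0.125 for either pair, which is the smallest value 4 embryos allow (adjusted p = 0.5 over the 8 neighbouring pairs). The pairs were formed from the mean levels in these same libraries, so the test is no independent check of the order. *Hes6* and *Hey1* differed by only 0.14 ± 0.274 and changed order between libraries, *Hes6* being higher in 5 of 8 (exact p = 0.375, adjusted p = 0.6). *Hey1* was above *Hes3* in 7 of 8 libraries (exact p = 0.25, adjusted p = 0.5). *Hes3* was above *Hey2* in 4 of 8 libraries but, on the log2 scale, in only 1 of 4 embryos. Their mean log2 difference was -0.23 ± 1.23 (exact p = 0.625, adjusted p = 0.714), so *Hes3* ranked higher by mean TPM only. For the 3 neighbouring pairs from *Hes5* down to *Hes7*, the exact p ran from 0.25 to 0.875, *Heyl* being above *Hes7* in 7 of 8 libraries (mean log2 difference 0.73 ± 0.665). With the length of the longest transcript in place of all exons, *Hey1* rose above *Hes6* (27.4 against 25.5 TPM) and *Hey2* above *Hes3* (19.97 against 14.1 TPM).

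The summed level of the family was 194, 168, 158 and 189 TPM in the left libraries and 163, 195, 168 and 223 TPM in the right ones. L29-3 had the higher sum on the left and the other 3 embryos on the right. Within this sum the shares of 3 members leaned the same way in every embryo. These were *Hes1* and the scarce *Heyl* (1 to 6 reads per library) to the right and *Hey1* to the left. In single ratios rather than shares, 6.11% of all tested genes were lower on the left in all 4 embryos. *Hes1* took 47.6% ± 2.27 of the left sum and 52.3% ± 4.94 of the right sum (SD, n = 4), a larger share on the right in 4 of 4 embryos. *Hey1* took 16.3% ± 2.15 of the left sum and 12.2% ± 2.72 of the right sum, a larger share on the left in 4 of 4. Its own level in L43-5 was nevertheless lower on the left, 28.8 against 30.3 TPM. Shares of one sum are not independent of each other, and the shares were not tested.

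For the comparison of sides, the filter of the study, a normalized count of 20 or more in 4 or more libraries, left 9744 genes. Of the 10 members, 5 passed it (*Hes1*, *Hes3*, *Hes6*, *Hey1* and *Hey2*) and 5 did not. Among these 5 genes, 2 estimates lay above 0 and 3 below. Their median log2 fold change (left over right) was -0.07, against -0.0042 over all genes tested. The study's threshold asks for a fold of 1.2 or more in either direction and an unadjusted p of 0.05 or less. It called 1 of the 5, *Hes1*, as lower on the left. This threshold called 3.05% of all tested genes, and 1.42% as lower on the left. At an adjusted p under 0.05 no member was called, and 0.0103% of all genes were. By unadjusted p alone, 1 of the 5 had 0.05 or less in edgeR, against 4.36% of all genes. With DESeq2 the study's threshold called none of the 5 and 0.575% of all genes.

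**Figure D2:**
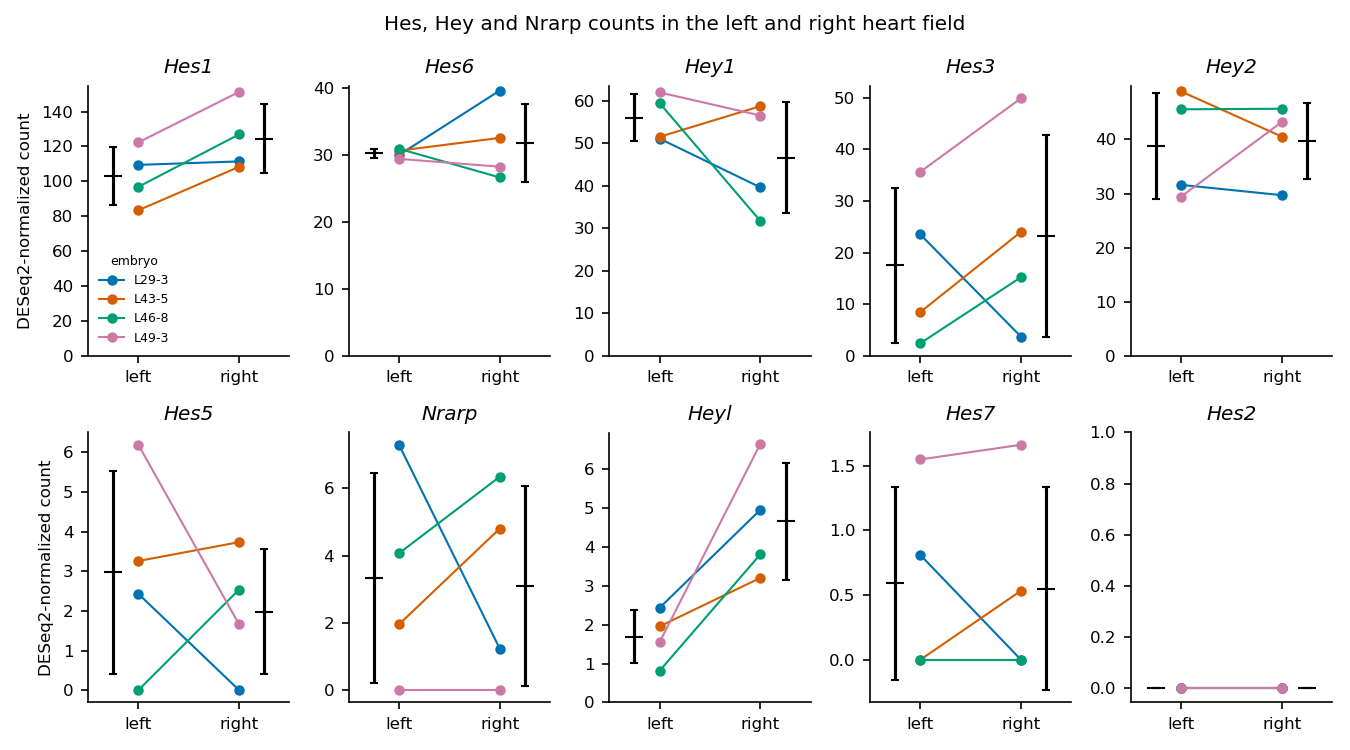
Normalized count of each of the 10 genes on the left and right side, one line per embryo, with the mean and SD (n = 4) of each side in black; the vertical axes differ and the upper row holds the 5 genes tested. *Hes1* rises from left to right in all 4 embryos, *Hes3* falls in L29-3 and rises in the other 3, and *Heyl* does not overlap between the sides.

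*Hes1* (ENSMUSG00000022528, chr16:30064384-30067796, plus strand, GRCm38), a general NOTCH effector that also oscillates through repression of its own gene, had normalized counts of 109, 83.5, 96.9 and 122 in the left libraries. The right libraries had 111, 108, 127 and 151. Each right library was higher than its left partner, by little in L29-3, while the groups as a whole overlapped. The left mean was 103 ± 16.7 and the right mean 124 ± 19.6 (SD, n = 4). The log2 fold change was -0.28 (SE 0.116, 95% interval -0.53 to -0.03), a 1.21-fold lower level on the left, past the study's threshold but with an adjusted p of 0.987 by edgeR's quasi-likelihood test. A direction toward lower values on the left in all 4 embryos was seen for 6.11% of all tested genes. The call rested on the setting: it passed without L29-3 (log2 fold change -0.36) and did not without L43-5 (-0.24), without L46-8 (-0.24) or without L49-3 (-0.27), always in the same direction. It was also lost with DESeq2 (-0.28), without the filter (-0.27) and without the embryo block (-0.27). Over these and the remaining alternatives the adjusted p ran from 0.956 to 0.99998.

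**Figure D3:**
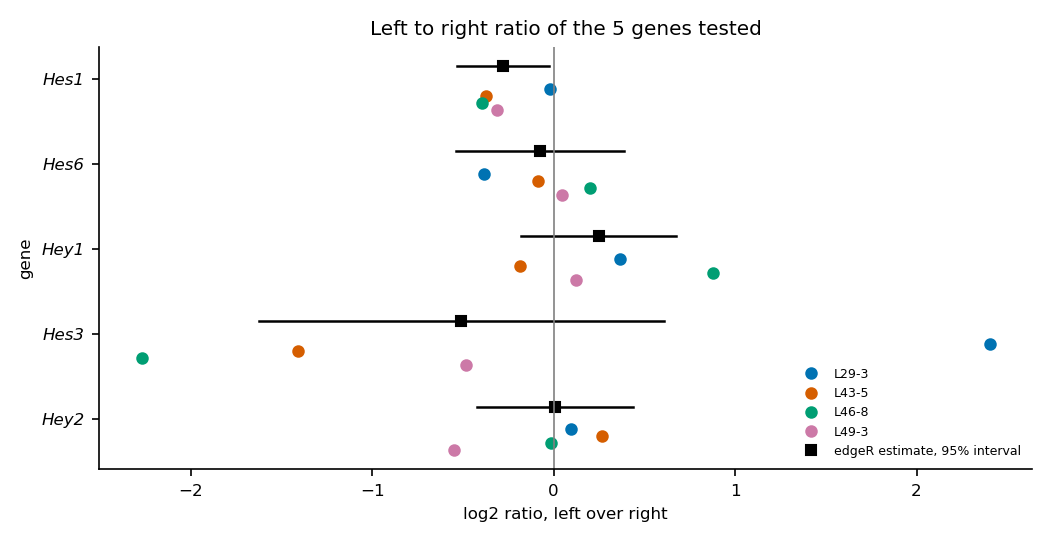
Log2 ratio of left over right for the 5 tested genes. Coloured points are single embryos (TMM-scaled CPM with a pseudocount of 0.5), and black squares with lines are the edgeR estimate and its 95% interval; for *Hes1* the interval ends just below 0, and for the other 4 genes it spans 0.

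*Hes3* (ENSMUSG00000028946, chr4:152285972-152291662, minus strand) is known for its expression in neuroepithelium, where it helps maintain neural stem cells. It was the most uneven of the 5 tested members. Its normalized counts were 23.5, 8.48, 2.44 and 35.6 in the left libraries and 3.71, 24.0, 15.2 and 49.9 in the right ones. The range over libraries was 20.4-fold, with a coefficient of variation of 80.8%, against 12.6% to 20.6% for the other tested members. L29-3 was higher on the left and the other 3 embryos were higher on the right. The raw counts behind these values were small, 29 and 3 reads in L29-3 and 3 and 12 in L46-8. The estimated log2 fold change was -0.51 (SE 0.512, 95% interval -1.62 to 0.61), with an adjusted p of 0.987 by edgeR. The log2 ratios of the single embryos had an SD of 2.03 (n = 4). The edgeR interval uses a spread drawn toward that of all genes and does not measure this SD. Without L29-3 the log2 fold change was -1.24, past the study's threshold, with an adjusted p of 0.999. Without L46-8 it was -0.22 and did not pass. Without L43-5 or L49-3 the gene no longer passed the filter.

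The sum of neural tube markers had the same direction as *Hes3* in each embryo, though not every marker did. The summed normalized count of 9 markers was 640, 393, 471 and 898 in the left libraries and 551, 724, 664 and 1030 in the right ones. The log2 ratio of these sums, 0.22, -0.88, -0.50 and -0.21, had the sign of the *Hes3* ratio (2.40, -1.41, -2.27 and -0.48) in 4 of 4 embryos. Of the 9 markers, 7 were tested and all 7 had estimates below 0 (median log2 fold change -0.45). At the study's threshold, which called 3.05% of all tested genes, 2 were called. These were *Sox1* (-0.98, SE 0.353) and *Pax6* (-0.83, SE 0.289), both lower on the left, each with an adjusted p of 0.987 by edgeR. Singly, *Sox1*, *Pax6* and *Pou3f1* had the sign of *Hes3* in 4 of 4 embryos, *Sox2*, *Rfx4* and *Olig2* in 3, and *Irx3*, *Nkx6-1* and *Lhx2* in 2. *Irx3*, with 2497 reads the most counted of the 9, ran against it in L46-8 and L49-3. None of the 9 was at 3 reads or fewer in total. The back of the embryo was removed in the dissection, and the part of neural tissue in the *Hes3* values was not tested. For *Hes1* the signs matched those of the marker sum in 3 of 4 embryos, L29-3 being the exception.

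**Figure D4:**
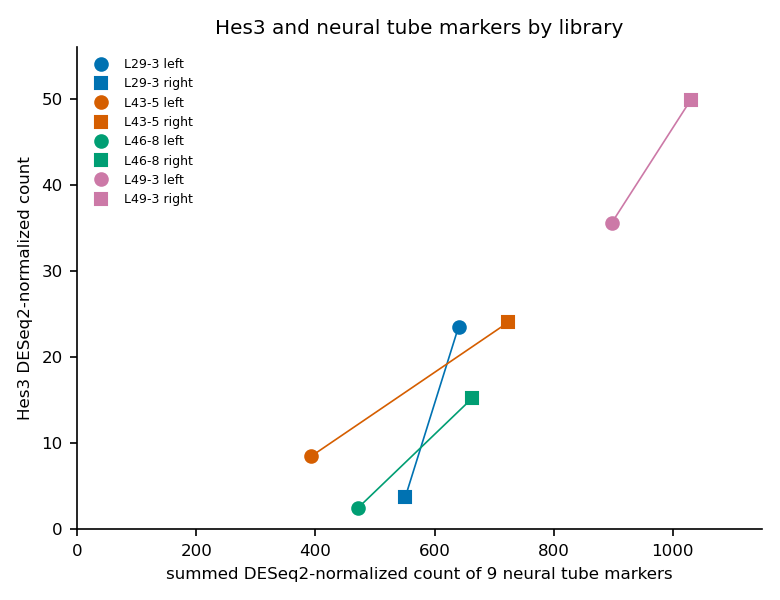
Normalized count of *Hes3* against the summed normalized count of 9 neural tube markers, with lines joining the left (circle) and right (square) library of an embryo. In every embryo the side with more marker reads has more *Hes3*, and both L49-3 libraries lie highest on both axes.

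*Hes6* (ENSMUSG00000067071, chr1:91411483-91414038, minus strand), which acts against HES1 and favours differentiation, was the steadiest member. The left libraries had normalized counts of 30.0, 30.6, 30.9 and 29.4, and the right ones 39.6, 32.5, 26.6 and 28.3. The left values fell within the spread of the right ones, with the left side higher in 2 embryos of 4. The log2 fold change was -0.07 (SE 0.213, 95% interval -0.54 to 0.39, adjusted p = 0.993, edgeR).

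*Hey1* (ENSMUSG00000040289, chr3:8663359-8667256, minus strand), with roles in chamber, valve and arterial development, had normalized counts of 51.1, 51.5, 59.4 and 61.9 in the left libraries. The right ones had 39.6, 58.7, 31.7 and 56.5. The left side was higher in 3 embryos, most in L46-8, and lower in L43-5, and the groups overlapped. The log2 fold change was 0.25 (SE 0.196, 95% interval -0.18 to 0.68, adjusted p = 0.987, edgeR). It was 0.062 without L46-8 and 0.47 without L43-5, short of the study's threshold in either case. The summed level of 10 endothelial markers had a log2 ratio of left to right of 0.04, -0.02, 0.07 and 0.35. These signs matched those of *Hey1* (0.37, -0.19, 0.88 and 0.12) in each embryo, though most were close to 0. The match was not particular to endothelium: the cranial neural crest sum (0.16, -0.04, 0.18 and 0.67) had the same signs. Singly, the endothelial marker *Kdr* was higher on the left in 4 embryos, and *Cldn5*, *Esam* and *Tek* in 3. *Sox17* and *Tie1* were so in 2, *Cdh5*, *Emcn* and *Pecam1* in 1, and *Egfl7* in 0. The endothelial sums ranged from 725 to 955 on the left and from 565 to 924 on the right. None of the 10 markers was at 3 reads or fewer, and the part of endothelial cells in the *Hey1* values was not tested.

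*Hey2* (ENSMUSG00000019789, chr10:30832359-30842801, minus strand), best known in ventricular compact myocardium and arterial endothelium, showed no detectable side difference. Its normalized counts were 31.6, 48.9, 45.6 and 29.4 in the left libraries, and 29.7, 40.6, 45.7 and 43.2 in the right ones. The 2 lowest values were those of the left library of L49-3, where the cardiomyocyte marker sum was lowest (762), and of the right library of L29-3, where that sum was among the highest (5864). The log2 fold change was 0.01 (SE 0.197, 95% interval -0.42 to 0.44, adjusted p = 0.99995, edgeR), and its sign turned in 4 of 11 alternative settings.

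The other 5 members were too low to be tested. *Heyl* (ENSMUSG00000032744, chr4:123233556-123249875), a NOTCH3 target known in vascular smooth muscle, had 3, 3, 1 and 1 reads in the left libraries and 4, 6, 3 and 4 in the right ones. In normalized counts the left values, 2.43, 1.96, 0.814 and 1.55, were all below the right values, 4.95, 3.20, 3.81 and 6.65. It was the single member with groups that did not overlap, and every one of its 8 values lay below 20, the level of the study's filter. Among all 23873 genes with any read, 0.788% were separated in this direction. This set includes genes with very few reads, which cannot separate when both sides hold a 0. The share may therefore be too low for a gene with reads in all 8 libraries. The 8 left and 17 right reads gave a ratio of right to left of 2.42, with an exact 95% counting interval from 0.991 to 6.49. In the edgeR fit of all genes with reads, its log2 fold change was -1.27 (SE 0.837, adjusted p = 0.997).

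*Hes5* (ENSMUSG00000048001, chr4:154960923-154962371), a main NOTCH effector in the neural tube, had 12 left and 10 right reads, from 0 to 7 per library. *Nrarp* (ENSMUSG00000078202, chr2:25180758-25183339) had 17 and 15 reads, of which none came from L49-3. *Hes7* (ENSMUSG00000023781, chr11:69120404-69124055), the oscillating repressor of the segmentation clock, had 2 and 2 reads, which lies at the level of counting noise. *Hes2* (ENSMUSG00000028940, chr4:152158867-152162469) had none, which allows a normalized count of up to 1.60 to 4.99 depending on the library. *Hes5*, *Hes7* and *Nrarp* each overlap an antisense gene by 433, 234 and 2051 bases. No read was assigned to any of the 3 antisense genes. The library kit kept the strand, but its use in counting is not given in the sources used here. Whether the overlaps lowered the counts of *Hes5*, *Hes7* and *Nrarp* was not tested. *Hes7* also shares near-identical stretches with 30 other genes, among them its antisense gene. *Hes5* and *Nrarp* each do so with 1, which is their antisense gene.

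Differences between embryos were compared with the 3 embryo terms of the same edgeR fit. Of the 5 tested members, 1 had an unadjusted p of 0.05 or less, *Hes3* (adjusted p = 0.479), where 9.99% of all genes did, and none passed after adjustment, where 0.174% did. The mean of both sides of *Hes3* was 13.6, 16.2, 8.83 and 42.7 normalized counts. The test of *Hes3* depended on the setting: the adjusted p was 9.7e-05 without the filter and 0.99997 with DESeq2, and the unadjusted threshold was missed without L46-8. *Hes1* followed, with an adjusted p of 0.516 and embryo means from 95.9 in L43-5 to 137 in L49-3. It met the unadjusted threshold without L29-3 (adjusted p = 0.372) and without L46-8 (adjusted p = 0.320). *Hey2* (adjusted p = 0.710), *Hey1* (adjusted p = 0.841) and *Hes6* (adjusted p = 0.956) did not meet it. Both *Hes1* and *Hes3* were highest in L49-3 on either side.

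The receptor *Notch3* was set beside *Hes1*, a pair chosen with earlier results of these data known. *Notch3* had a log2 fold change of 0.28 (SE 0.0995, adjusted p = 0.987, edgeR), higher on the left, the side on which *Hes1* was lower. Its log2 ratio of left to right was 0.22, 0.00109, 0.32 and 0.66. The *Hes1* ratios were -0.02, -0.37, -0.40 and -0.31. The *Hes1* ratio was below that of *Notch3* in 4 of 4 embryos, by 0.58 ± 0.333 on the log2 scale (SD, n = 4). The exact two-sided sign-flip test gave p = 0.125, the smallest value that 4 embryos allow.

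Upstream genes of the pathway were given by lists. None of the genes named from them passed an adjusted p of 0.05 in edgeR. All 4 receptors were tested, with 2 estimates above 0, 2 below and a median of 0.10 on the log2 scale. *Notch3* was the 1 called, and *Notch1* had 0.20 (SE 0.160), *Notch2* -0.01 (SE 0.0894) and *Notch4* -0.56 (SE 0.382). This count was 2 without L29-3 or L46-8, and 0 without L49-3 and with limma-voom. Of all tested genes, 297 of 9744 were called with all 4 embryos, 354 of 9818 without L29-3 and 388 of 9803 without L46-8. Of 8 ligands and fringes, 4 were tested, 2 in each direction, with a median of -0.04. The ligand *Jag1* was called, higher on the left (0.32, SE 0.124), while *Jag2* had -0.31 (SE 0.280) and the fringe *Lfng* -0.29 (SE 0.267). No gene of this list was called without L46-8, without L49-3 or with limma-voom. Without the filter 2 were called, where 687 of all 23873 were. Of the 8 genes of the nuclear complex 7 were tested, 4 estimated higher and 3 lower, with none called. *Rbpj*, the DNA-binding partner of all 4 receptors, had -0.07 (SE 0.0891).

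**Figure D5:**
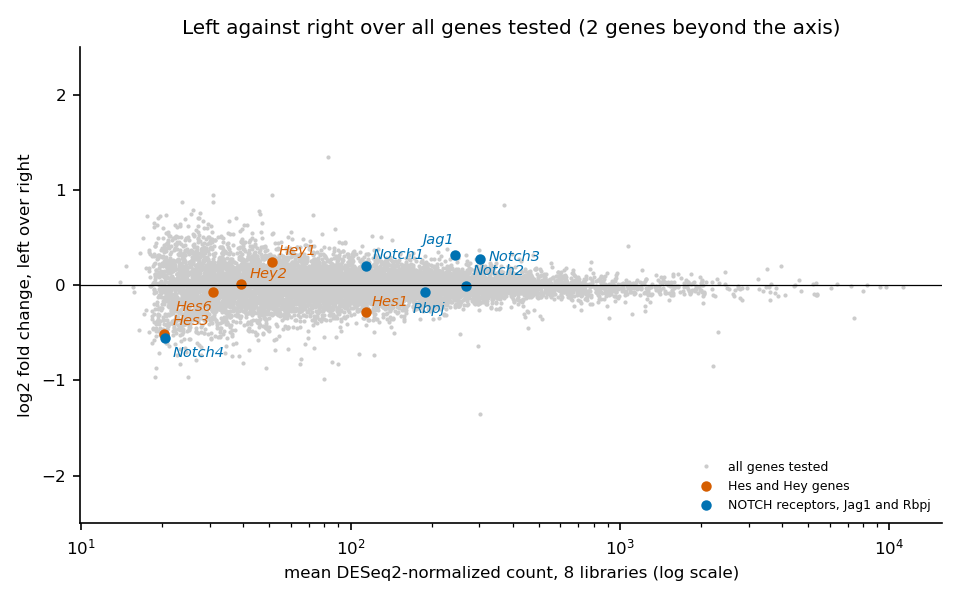
Log2 fold change (left over right) of the 9744 tested genes against their mean normalized count on a log axis, with the 5 tested *Hes* and *Hey* genes in orange and the 4 receptors, *Jag1* and *Rbpj* in blue; 2 genes lie beyond the vertical axis. *Hes1* lies below 0, *Notch3* and *Jag1* above it, and *Hes6*, *Hey2*, *Notch2* and *Rbpj* close to it.

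No listed partner or target of the repressors was called between the sides after the study's filter with all 4 embryos. Of 11 corepressors listed, among them the Groucho family and histone deacetylases, 8 were tested, 4 in each direction and none called (median log2 fold change -0.0044). *Tle3* had 0.09 (SE 0.0695) and *Hdac1* -0.13 (SE 0.0750). Of 7 related bHLH and HLH factors, 3 were tested, *Id1*, *Id2* and *Id3*, with none called and a median of -0.06. None of 7 proneural genes that HES proteins repress passed the filter, *Neurog2* having 7 reads in total and *Atoh1* and *Neurod4* none. Of 13 segmentation clock genes, 5 were tested and none was called, with 1 called without L46-8. *Mesp2* and *Msgn1* had no read. Of 6 cardiac genes tied to HEY function, all 6 were tested, with 1 estimate above 0, 5 below, a median of -0.21 and none called. Examples are *Gata4* (-0.09, SE 0.230), *Gata6* (-0.20, SE 0.166) and *Nkx2-5* (-0.30, SE 0.299). Without L46-8, 5 of these 6 genes were called, where 388 of all 9803 genes tested were. Without the filter 1 was, where 687 of all 23873 were. The cardiomyocyte marker sum had a log2 ratio of left to right of 0.12, -0.51, 0.89 and -1.74, so L46-8 was the embryo highest on the left. The 7 cardiomyocyte markers tested also had estimates below 0, with a median of -0.20 and none called, and their part in the cardiac list was not tested. All 7 tested paraxial mesoderm markers were likewise estimated lower on the left (median -0.19, none called), as were 7 of 10 second heart field markers (median -0.19, none called). The other lists were mixed in direction, with 5 of 8 endothelial, 4 of 9 foregut, 3 of 5 surface ectoderm and 3 of 4 neural crest markers estimated higher on the left, and no primitive blood marker passing the filter. Of these, *Snai2* of the neural crest was called (0.55, SE 0.165, higher on the left).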

How the data were processed

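The counts deposited by the authors are whole reads per gene, not normalized, for 48526 genes in 8 poly-A libraries. The authors mapped paired-end reads to GRCm38 with HISAT2, removed duplicates and counted with featureCounts; tool versions and the strand setting are not given in the sources used here. The counts are therefore of reads left after duplicate removal, and 3 reads was taken as the floor for a count of 0. Symbols, positions and exon lengths were from GENCODE vM21 (48058 identifiers matched). Sides were compared with edgeR 4.0.16 (R 4.3.3) on TMM-scaled counts, blocking on the embryo because both sides are from 1 animal. Correlations of paired deviations were 0.165, 0.190, -0.02 and 0.437 in L29-3, L43-5, L46-8 and L49-3. Between sides of different embryos they ran from -0.389 (L49-3 left, L29-3 right) to 0.255 (L46-8 left, L29-3 right). Sides of the same embryo were thus not always the most alike. Adjusted p-values follow Benjamini and Hochberg over 9744 genes. Single ratios used TMM-scaled CPM plus 0.5, and near-identical stretches were at least 90% alike over 100 bases (blastn 2.17.0). Alternatives were DESeq2 1.42.0, limma-voom 3.58.1, other filters, scalings and lengths, no block, and each embryo left out. The members and lists were chosen with earlier results of these data known, and all members were named, with a few genes per list. Nothing says that embryos came from separate litters. In edgeR, p-values for the sides set the left to right difference against how much it varied among these embryos. This spread was not taken from each gene alone but drawn toward that of all genes tested. The SE and the interval use it too. The p-values for embryos are set against the same remaining spread of the sides within embryos, and not against a spread between litters.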

Additional observations from a re-analysis of the deposited data

How the results depend on the processing

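Between the sides, no member passed an adjusted p of 0.05 in any of 11 alternative settings; between embryos, *Hes3* did without the filter (9.7e-05). The number of members past the study's threshold was 1, and 0 without the filter, with DESeq2 and without the replicate block, and 0 to 2 when an embryo was left out. The number tested was 9 without the filter. Over all genes, the count past that threshold (297) was 687 without the filter, 56 with DESeq2 and 291 to 388 with an embryo left out. Genes at an adjusted p under 0.05 (1) numbered 34 without the filter, 0 at 10 counts in every library, 2 with DESeq2, 0 without the replicate block (the pairing) and 1 to 5 with an embryo left out. Between embryos (17 genes) the count was 641, 9 and 46 in the first 3 of these, and 0 to 237 with an embryo left out; members past an unadjusted p of 0.05 (1) numbered 0 at 10 counts, 0 with DESeq2 and 0 to 2 with an embryo left out. The estimate of *Hey2* (0.01) turned to -0.021 with DESeq2, -0.000913 without the replicate block, and, without L29-3 or L43-5, below 0 (range with an embryo left out -0.13 to 0.13), and that of *Hes6* (-0.07) turned without L29-3 (range -0.16 to 0.044); the cause was not tested. *Hes3* has no value where it failed the filter: at 10 counts, without L43-5 and without L49-3. Of 8 neighbouring pairs in the level order, 6 kept it with the longest transcript and without L49-3. The *Hes1* to *Notch3* difference stayed between -0.69 and -0.44. Counts under about 20 per library limit *Hes3*, *Hes5*, *Heyl* and *Nrarp*.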

Other observations

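Pearson's r between the 5 tested members, on log2 CPM over 8 libraries that share 4 embryos and differ in depth, ran from -0.54 (*Hes3* and *Hes6*) to 0.65 (*Hes1* and *Hes3*). The genes most like each member among 9739 others were *Rpl27a* (r = 0.966) and *Cep78* (0.949) for *Hes1*, *Arl13b* (0.972) and *Eif3c* (0.967) for *Hes3*, *Bex2* (0.968) and *Fam129b* (0.964) for *Hes6*, *Tpbg* (0.951) and *Yif1b* (0.945) for *Hey1*, and *Slc25a13* (0.962) and *Brd1* (0.949) for *Hey2*. With 8 libraries and this many genes such values are a description, and none of these genes is in the pathway lists.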
